A study of Mus musculus with 12 samples.

Results

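The glycolysis and lactate genes are 33 genes of mouse embryonic stem cells. Their products import glucose, convert it to pyruvate and lactate, export lactate or bear on the oxidation of pyruvate in mitochondria. These genes were chosen by gene symbol, as 33 of the 25897 symbols in a table of raw read counts. All 33 were in the table and all 33 were among the 14185 genes with enough counts to be tested. The cells were clones a, b and c of E14tg2a stem cells (129SV background) carrying a cRAF-ERT2 construct, a RAF kinase fused to a modified oestrogen receptor domain that 4-hydroxytamoxifen (4OHT) switches on. Per the labels' protocols, total RNA was sequenced, from 4 groups of 3 clones: untreated cells and cells given 250 nM 4OHT for 1 h, 2 h or 4 h. Cells of all 4 groups had been grown in serum with LIF and 2 µM Chir99021, were in serum with LIF and 250 nM of the FGF receptor inhibitor PD173074 for the last 24 h before treatment, and had 5 mM ethynyl uridine for 15 min before harvest. No vehicle-treated group was analysed here, and the promoter that drives the construct is not given in the sources used here. The protocol text attached to the samples names 0 h and 2 h only, while titles and design give all 4 times.

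Glycolysis splits glucose into pyruvate in the cytosol. Glucose enters through GLUT transporters, hexokinase traps it as glucose 6-phosphate, and phosphofructokinase commits it to the pathway under control of fructose 2,6-bisphosphate, which the Pfkfb enzymes make and remove. Lactate dehydrogenase turns pyruvate into lactate, which leaves through monocarboxylate transporters, and pyruvate dehydrogenase kinases hold back the oxidation of pyruvate in mitochondria. Pluripotent stem cells are known for a high glycolytic rate, and growth factor signalling, MYC and hypoxia-inducible factors are known to act on these genes in many cell types.

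Libraries held 24213641 to 31435301 counts, so that 1 count was worth 0.0308 to 0.0408 CPM, the unit of level used here, which scales counts to the size of each library (with TMM factors). Of 10 stem cell markers, none stayed under 1 CPM in every library, and their summed level was 4448 to 5197 CPM at 4 h, against 5454 to 6430 CPM in untreated cells. The markers did not move together: at 4 h Nanog (243 to 315 CPM, against 655 to 725 CPM in untreated cells), Tfcp2l1 (545 to 1148, against 1266 to 2309) and Tdgf1 lay below all untreated libraries, while Pou5f1 (1033 to 1171 CPM, against 627 to 798 CPM in untreated cells), Sox2, Utf1 and Dppa4 lay above them and the other 3 overlapped. Summed levels of 8 fibroblast markers were 18.1 to 41.4 CPM at 4 h, against 4.53 to 5.33 CPM in untreated cells, and 5 of these markers of feeder cells (Col1a2, Col3a1, Twist2, Prrx1 and Postn) were under 1 CPM in every library. Most of the sum at 4 h was Thy1 (10.9 to 25.2 CPM, against 2.90 to 3.74 in untreated cells) and Twist1 (6.37 to 16.6, against 0.761 to 1.23). Col1a1 did not exceed 1.23 CPM in any library. The 4 mesoderm markers summed to 12.8 to 22.7 CPM at 4 h, against 3.61 to 3.90 CPM in untreated cells, with 2 of 4 under 1 CPM throughout. Most of this sum was Eomes (10.4 to 19.1 CPM at 4 h, against 2.59 to 3.22 CPM in untreated cells). Primitive endoderm markers summed to 3.29 to 10.2 CPM at 4 h, against 5.14 to 10.7 CPM in untreated cells. Neural markers summed to 10.2 to 18.8 CPM, against 7.56 to 9.47 CPM, with Neurod1 and Tubb3 listed at 0 counts in every library. The neural markers with counts went opposite ways. At 4 h Pax6 had 9.74 to 17.2 CPM, against 3.94 to 6.39 CPM in untreated cells, and Sox1 had 0.441 to 1.54 CPM, against 2.87 to 4.95 CPM. With the rules of counting unknown, a gene listed at 0 throughout is not read as absent. The part of these shifts in the results on glycolysis genes was not tested. The treated times share the same 3 untreated libraries. In whole-culture RNA, fewer cells of a type and less RNA per cell cannot be told apart. Nothing in the labels says that the 3 clones of a group were separate experiments, so p-values measure the spread between these cultures.

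Changes in this pathway were mostly under 2-fold. More of its genes were called higher than lower at 2 h and 4 h, as was also so among all tested genes. Whether its shares differ from those of all tested genes was not tested. After 4 h of 4OHT, 8 of the 33 genes had risen and 3 had fallen by edgeR's quasi-likelihood test (adjusted p under 0.05 over all genes tested), which is 24.2% and 9.09% of them, where 18.0% of all tested genes were higher and 15.1% lower. The 8 were Slc2a1, Hk2, Pfkfb4, Aldoa, Eno1, Pkm, Slc16a1 and Pdk1, and the 3 were Hk1, Pfkfb1 and Tigar. After 2 h, 6 genes had risen (Hk2, Pfkfb4, Aldoa, Eno1, Pkm and Slc16a1) and 0 had fallen by edgeR, 18.2% of the list, beside 9.56% of all tested genes higher and 6.64% lower. After 1 h, 0 genes passed edgeR's threshold, DESeq2's or limma-voom's, 6 had an unadjusted p under 0.05 in edgeR, and 0.0775% of all tested genes were called. Each of the 6 calls at 2 h ended when clone a or b of the untreated group or clone b or c of the 2 h group was left out, and those of Hk2, Aldoa, Eno1 and Slc16a1 also without clone c of the untreated group (edgeR, adjusted p 0.0509 to 0.195). At 4 h the number called was 6 without clone b or without clone c of the 4 h group, and, with a clone left out of every group, 6 without clone b and 0 without clone c by edgeR without the block. The median log2 change over the 33 genes came to 0.14 after 1 h, to 0.15 after 2 h and to 0.26 after 4 h, beside -0.02 at each of these times over all tested genes.

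The clones differed in starting level, and libraries of 1 clone deviated together from their group means, so the clone was also fitted as a block. With the block, edgeR called 8 genes higher and 0 lower at 1 h, where 5.41% of all tested genes were higher and 1.58% lower. At 2 h it called 16 higher and 2 lower, beside 20.6% and 20.0% of all tested genes. At 4 h it called 16 higher and 7 lower, beside 26.2% and 25.7%. With the block, the share of the list called higher was 24.2% at 1 h and 48.5% at both 2 h and 4 h, above the share of all genes, and the share called lower was 6.06% at 2 h and 21.2% at 4 h, below it. These differences in share were not tested. The 8 genes higher at 1 h with the block were Slc2a1, Gpi1, Pfkl, Aldoa, Gapdh, Eno1, Pkm and Slc16a3. Every call made without the block at 2 h and 4 h was also made with it. Single libraries were left out only in the fit without the block, which does not use the pairing of clones.

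**Figure D1:**
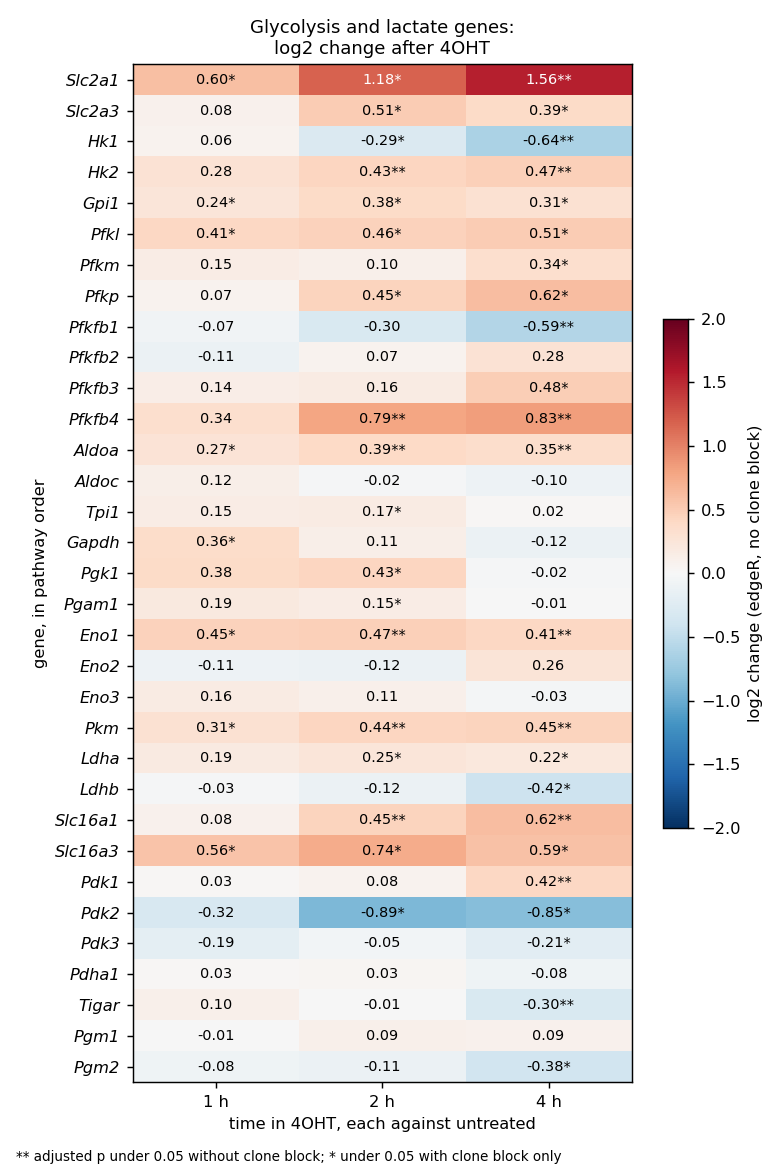
Log2 change of each of the 33 genes (rows, in pathway order) after 1 h, 2 h and 4 h of 4OHT (columns), each against untreated cells, from edgeR without the clone block. A pair of stars marks an adjusted p under 0.05 without the block and a single star one under 0.05 only with it; Slc2a1 has the strongest red at 4 h (1.56), and Hk1, Pfkfb1 and Tigar are the blue cells with a pair of stars.

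Glucose transporters. Slc2a1 encodes GLUT1, the basal glucose transporter of most cells, and lies at chr4:119108711-119137983 on the plus strand (GRCm38). Slc2a1 had 262, 518 and 344 CPM (clones a, b, c) when untreated, 360.0, 848 and 498 CPM after 1 h, 439, 1288 and 815 CPM after 2 h and 489, 1849 and 973 CPM after 4 h of 4OHT. It was higher in each clone at each later time, most in clone b, but the groups overlapped, because clone a at 4 h stayed under the untreated level of clone b. The log2 change was 1.56 ± 0.51 at 4 h (edgeR, adjusted p = 0.0358), the only one of the 33 above 2-fold at that time. At 2 h it was 1.18 ± 0.50 without a call (edgeR, adjusted p = 0.123), and with the clone block 1.09 ± 0.14 (edgeR, adjusted p = 0.000286). Within clones the fold at 4 h was 1.87 in clone a, 3.57 in clone b and 2.83 in clone c. The call at 4 h without the block ended when clone a or c was left out of the untreated group or clone b or c out of the 4 h group (log2 0.96 to 1.64, adjusted p 0.0653 to 0.173 by edgeR). With the clone block and all libraries, Slc2a1 was also called higher at 4 h (log2 1.42). Exons of Slc2a1 overlap those of Gm12868, and the strand setting of the counting is not given in the sources used here, so reads of the pair could not be separated.

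Slc2a3 encodes GLUT3, a high-affinity transporter. Slc2a3 had 1615, 1594 and 1398 CPM (clones a, b, c) when untreated, 1594, 1756 and 1519 CPM after 1 h, 1793, 2673 and 2076 CPM after 2 h and 1509.5, 2533 and 1986 CPM after 4 h of 4OHT. All 2 h libraries were above all untreated ones, while at 4 h clone a was below its own untreated level and clones b and c were above theirs. The log2 change was 0.51 ± 0.18 at 2 h and 0.39 ± 0.18 at 4 h, without a call (edgeR, adjusted p = 0.0719 and 0.115), and it rose with the clone block (edgeR, adjusted p = 0.0103 at 2 h and 0.0295 at 4 h). Per kilobase of exon, Slc2a1 made up 40.1%, 60.1% and 50.3% of the summed level of the pair at 4 h in clones a, b and c, against 25.1%, 40.2% and 33.7% in untreated cells.

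Promoter sequence is shown for 3 genes that moved and that have a single start in the table used: the 2 transporters at the ends of the pathway that rose, Slc2a1 and Slc16a1, and Tigar, which fell. Each line gives the 250 bases before the RefSeq start (GRCm38.p6), 5′ to 3′ on the gene's own strand, at chr4:119108495-119108744 (plus), chr3:104638414-104638663 (plus) and chr6:127109553-127109802 (minus). Capitals mark matches on either strand to 5 short motifs: CACGTG (E-box bound by MYC and USF), ACGTG and GCGTG (core of hypoxia-inducible factor sites), TGACTCA (AP-1) and CCGGAAG (ETS). Each CACGTG also holds ACGTG.
Slc2a1: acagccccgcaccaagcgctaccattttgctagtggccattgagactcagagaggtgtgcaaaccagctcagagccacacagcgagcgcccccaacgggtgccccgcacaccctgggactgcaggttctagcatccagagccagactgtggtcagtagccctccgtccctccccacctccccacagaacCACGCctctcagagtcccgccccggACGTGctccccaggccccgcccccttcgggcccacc
Slc16a1: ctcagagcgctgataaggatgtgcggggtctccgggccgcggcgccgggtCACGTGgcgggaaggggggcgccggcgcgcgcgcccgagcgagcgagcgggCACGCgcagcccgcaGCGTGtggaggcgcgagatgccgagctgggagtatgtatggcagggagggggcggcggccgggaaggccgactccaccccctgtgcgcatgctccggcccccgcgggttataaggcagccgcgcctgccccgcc
Tigar: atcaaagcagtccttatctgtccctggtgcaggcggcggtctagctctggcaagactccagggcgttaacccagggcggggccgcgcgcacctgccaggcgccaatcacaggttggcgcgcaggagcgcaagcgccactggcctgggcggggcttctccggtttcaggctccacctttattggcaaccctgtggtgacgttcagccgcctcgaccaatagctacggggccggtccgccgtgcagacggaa
Slc2a1 held 2 matches, one each to GCGTG and ACGTG. Slc16a1 held 5, but its CACGTG, which begins 200 bases before the start, was counted again as ACGTG on each strand. The rest of its matches were to GCGTG. Tigar held 0. Hk2 and Pfkfb4, which rose, also have a single start but are not printed. Of the 5 motifs, Hk2 held only ACGTG and Pfkfb4 only GCGTG. Hk1 and Pfkfb1, which fell like Tigar, have several starts. Each held GCGTG at a start, and that start of Pfkfb1 also held CCGGAAG. Whether matches go with the direction of change was not tested. Among the 30 members with a promoter in the table, CACGTG occurred in 6 (20.0%), beside 6.86% of 27025 genes. ACGTG occurred in 14 members (46.7%, beside 18.5% of all), GCGTG in 20 (66.7%, beside 30.9%), TGACTCA in 1 (3.33%, beside 5.16%) and CCGGAAG in 2 (6.67%, beside 7.83%). A gene is counted when the 250 bases before any of its listed starts hold the motif, and the 30 members have 1.63 starts on average, beside 1.22 for all genes. The 27025 genes were not limited to those with enough counts to be tested, as all members were, and base content was not matched. These differences in share were not tested. A match is a string of letters in such a window, and binding was not measured.

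Hexokinases. Hk1 encodes the housekeeping hexokinase and Hk2 an inducible one, both of which can sit on mitochondria, and they moved in opposite directions. Hk2 (chr6:82725025-82774454, minus strand) had 715, 655 and 809.8 CPM (clones a, b, c) when untreated, 794, 895 and 961 CPM after 1 h, 840.2, 1008 and 1095 CPM after 2 h and 843, 1071 and 1112 CPM after 4 h of 4OHT. All libraries at 2 h and 4 h were above all untreated ones. Hk2 rose by 0.43 ± 0.13 at 2 h (edgeR, adjusted p = 0.0443) and by 0.47 ± 0.13 at 4 h (edgeR, adjusted p = 0.0172) on the log2 scale. The call at 4 h ended without clone a or b of the untreated group or clone b or c of the 4 h group (log2 0.40 to 0.46, adjusted p 0.0525 to 0.0736 by edgeR).

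Hk1 (chr10:62268855-62379908, minus strand) had 96.3, 98.7 and 129 CPM (clones a, b, c) when untreated, 111, 102 and 126 CPM after 1 h, 86.9, 74.6 and 103 CPM after 2 h and 74.9, 56.8 and 76.4 CPM after 4 h of 4OHT. Levels at 1 h lay among the untreated ones, and all 4 h libraries were below all untreated ones. The log2 change at 4 h was -0.64 ± 0.16 (edgeR, adjusted p = 0.0103), and this call held when any 1 of the 6 libraries compared was left out. The blocked fit also called Hk1 lower at 2 h (log2 -0.29 ± 0.07, edgeR, adjusted p = 0.0102). Hk2 made up 94.1%, 96.4% and 95.4% of the summed level per kilobase of Hk1 and Hk2 at 4 h in clones a, b and c, against 91.4%, 90.5% and 89.9% in untreated cells. Exons of Hk1 overlap the antisense gene Hk1os, so the 2 could not be separated without the strand setting.

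Isomerase and phosphofructokinase. Gpi1, glucose 6-phosphate isomerase, had 469, 592 and 555 CPM (clones a, b, c) when untreated, 583, 709 and 617 CPM after 1 h, 588, 812 and 702 CPM after 2 h and 571, 782 and 646 CPM after 4 h of 4OHT. Each clone was above its own untreated level at each time, with overlap between the groups. The log2 change at 4 h was 0.31 ± 0.14 without a call (edgeR, adjusted p = 0.121), and with the clone block Gpi1 rose at 1 h, 2 h and 4 h (edgeR, adjusted p = 0.0241, 0.000533 and 0.000783).

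Pfkl, the liver-type subunit of phosphofructokinase, was the most abundant of the 3 subunits per kilobase. Pfkl had 315, 514 and 447 CPM (clones a, b, c) when untreated, 516, 660.5 and 520.1 CPM after 1 h, 455, 715 and 586 CPM after 2 h and 516, 728 and 568 CPM after 4 h of 4OHT. At 1 h and 4 h all treated libraries were above all untreated ones. Its log2 change was 0.41 ± 0.21 at 1 h and 0.51 ± 0.21 at 4 h without a call (edgeR, adjusted p = 0.479 and 0.0790), and it rose with the block at all 3 times (edgeR, adjusted p = 0.0136, 0.00151 and 0.000345). The platelet-type subunit Pfkp, singled out here after its values were seen, changed by 0.07 ± 0.25 at 1 h, 0.45 ± 0.25 at 2 h and 0.62 ± 0.25 at 4 h on the log2 scale, with a call at 2 h and 4 h only with the block (edgeR, adjusted p = 0.000533 and 2.16e-05). The muscle-type subunit Pfkm averaged 47.3 ± 15.8 CPM at 4 h and 37.4 ± 4.09 CPM in untreated cells (SD, n = 3 each), and was called higher at 4 h with the block alone (edgeR, adjusted p = 0.0313). Its log2 change at 4 h was 0.65, -0.04 and 0.25 in clones a, b and c, and the groups overlapped.

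Fructose 2,6-bisphosphate enzymes. The 4 Pfkfb genes encode bifunctional enzymes that make and break this activator of phosphofructokinase, and all were low, at 0.52 to 4.40 CPM per kilobase in untreated cells. Pfkfb4 (chr9:108991778-109032228, plus strand) had 4.97, 4.90 and 6.88 CPM (clones a, b, c) when untreated, 6.94, 5.55 and 8.74 CPM after 1 h, 8.50, 9.41 and 11.1 CPM after 2 h and 7.91, 11.2 and 10.7 CPM after 4 h of 4OHT. All libraries at 2 h and 4 h were above all untreated ones. Pfkfb4 rose by 0.79 ± 0.21 at 2 h (edgeR, adjusted p = 0.0301) and 0.83 ± 0.21 at 4 h (edgeR, adjusted p = 0.0117), and the call at 4 h held with any 1 of the 6 libraries left out.

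Pfkfb1 (chrX:150588229-150643878, plus strand) had 9.32, 9.32 and 9.17 CPM (clones a, b, c) when untreated, 9.59, 7.95 and 8.89 CPM after 1 h, 8.35, 7.83 and 6.34 CPM after 2 h and 7.60, 5.67 and 5.22 CPM after 4 h of 4OHT. Libraries at 2 h and 4 h were all below the untreated ones, which lay close together. Pfkfb1 fell by 0.59 ± 0.16 on the log2 scale at 4 h (edgeR, adjusted p = 0.0172), a call that ended without clone b or c of the 4 h group (log2 -0.53 to -0.48, adjusted p 0.0628 to 0.0735 by edgeR). Its exons overlap those of Apex2. Pfkfb3, the most abundant of the 4, averaged 46.5 ± 27.0 CPM at 4 h and 33.3 ± 7.48 CPM in untreated cells (SD, n = 3 each), was higher in clones b and c and lower in clone a, and was called with the block alone (edgeR, adjusted p = 0.0399). Pfkfb2 was not called at any time in either fit (edgeR, adjusted p = 0.0767 at 4 h with the block).

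Tigar encodes a phosphatase related to the Pfkfb enzymes that lowers fructose 2,6-bisphosphate, known as a p53 target in human cells. Tigar (chr6:127085116-127109557, minus strand) had 149.8, 153 and 155 CPM (clones a, b, c) when untreated, 159.6, 164 and 167 CPM after 1 h, 146, 150.5 and 158 CPM after 2 h and 124, 124 and 125 CPM after 4 h of 4OHT. The 3 clones lay close together at each time. All 1 h libraries were above, and all 4 h libraries below, all untreated ones. Tigar fell by 0.30 ± 0.05 on the log2 scale at 4 h (edgeR, adjusted p = 0.00184), the smallest SE among the 11 called genes, with the call kept without any 1 of the 6 libraries (log2 -0.31 to -0.29). At 2 h the change was -0.01 ± 0.05 (edgeR, adjusted p = 0.883), and from 2 h to 4 h it fell by 0.28 ± 0.05 (edgeR, adjusted p = 0.0151). Its exons overlap those of Platr31.

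**Figure D2:**
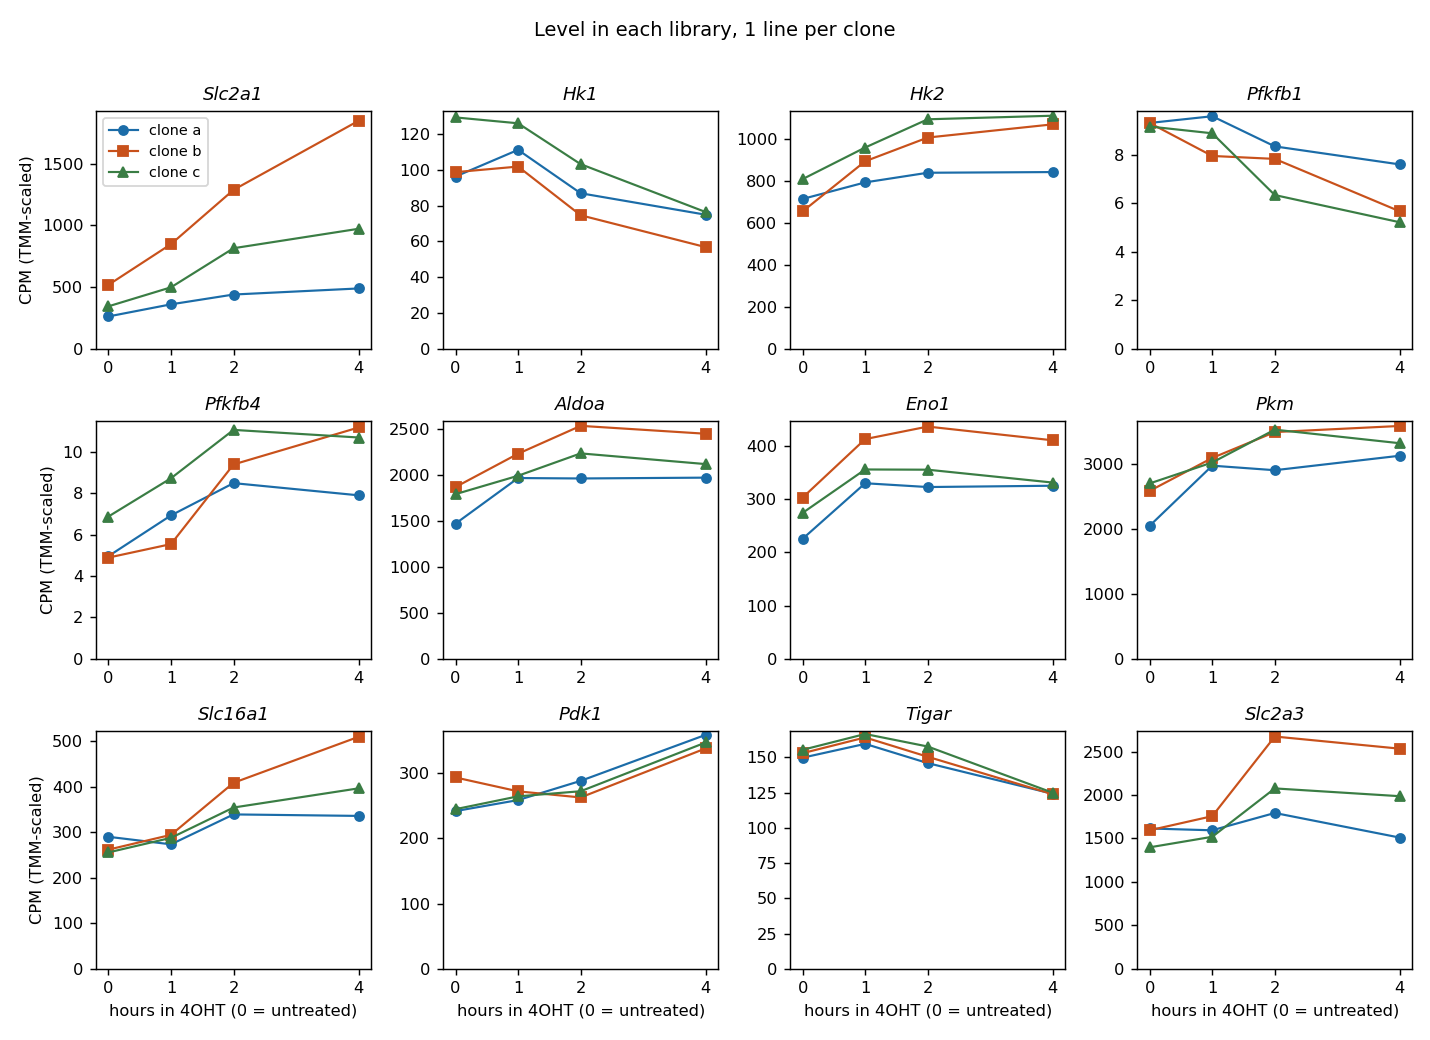
CPM in each library against hours in 4OHT (0 is untreated) for the 11 genes called without the clone block and Slc2a3, 1 line per clone, and vertical axes that start at 0. Slc2a1 fans out to 489, 1849 and 973 CPM at 4 h in clones a, b and c, while the 3 Tigar lines meet at 124 to 125 CPM.

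Aldolase and triose phosphate isomerase. Aldoa is the main aldolase of most tissues. The annotation holds 2 gene entries with this symbol, and with the exon length of the longer one (2911 bases) Aldoa stood at the top of the genes compared (748 ± 84.0 CPM per kilobase at 4 h and 587 ± 72.5 in untreated cells, SD, n = 3 each). With the exons of both entries (3710 bases), a length tried after the values were seen, it averaged 587 ± 65.9 at 4 h and 460.5 ± 56.9 in untreated cells, below Pkm in both groups. Aldoa (chr7:126795234-126800751, minus strand) had 1469, 1867 and 1789 CPM (clones a, b, c) when untreated, 1965, 2229 and 1989.6 CPM after 1 h, 1960.2, 2532 and 2233 CPM after 2 h and 1969, 2446 and 2116 CPM after 4 h of 4OHT. All libraries at each treated time were above all untreated ones. Aldoa rose by 0.39 ± 0.12 at 2 h (edgeR, adjusted p = 0.0487) and 0.35 ± 0.12 at 4 h (edgeR, adjusted p = 0.0450), and at 1 h by 0.28 ± 0.06 with the block (edgeR, adjusted p = 0.0228). The call at 4 h ended without clone a or c of the untreated group or clone b or c of the 4 h group (log2 0.25 to 0.38, adjusted p 0.0672 to 0.176 by edgeR). Its exons overlap those of Fam57b.

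The brain-type aldolase Aldoc made up 0.9% to 1.2% of the summed aldolase level per kilobase at 4 h and was not called at any time in either fit (edgeR, adjusted p = 0.432 at 4 h with the block). Tpi1, which interconverts the triose phosphates, had 483, 669 and 586 CPM (clones a, b, c) when untreated, 613, 703 and 613 CPM after 1 h, 591, 727 and 633 CPM after 2 h and 558, 661 and 545 CPM after 4 h of 4OHT. The groups overlapped at each time. The log2 change was 0.17 ± 0.12 at 2 h, called with the block only (edgeR, adjusted p = 0.0433), and 0.02 ± 0.12 at 4 h, called in neither fit (edgeR, adjusted p = 0.725 with the block).

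Middle steps. Gapdh, Pgk1 and Pgam1 encode glyceraldehyde phosphate dehydrogenase, phosphoglycerate kinase and phosphoglycerate mutase, and none of the 3 was called at 4 h in either fit. Gapdh had 44.7, 54.7 and 46.2 CPM (clones a, b, c) when untreated, 53.9, 68.7 and 64.3 CPM after 1 h, 45.1, 57.3 and 54.7 CPM after 2 h and 45.8, 44.5 and 43.9 CPM after 4 h of 4OHT. The groups overlapped, with the highest values at 1 h, where the blocked fit called Gapdh higher by 0.36 ± 0.08 (edgeR, adjusted p = 0.0266). The Gapdh level was 10.8 ± 0.240 CPM per kilobase at 4 h and 11.7 ± 1.30 in untreated cells (SD, n = 3 each). Transcripts of 81 other annotated genes match Gapdh over at least 100 bases at 95% identity or more, and the part of shared reads in this level was not tested. Such matches number 5 for Ldha, 4 each for Gpi1 and Pgk1, 3 for Eno1 and 1 each for Tpi1, Pgam1, Pkm and Ldhb. Exons of Gpi1, Pfkm, Pfkp, Pfkfb2, Tpi1, Gapdh, Pdha1 and Pgm1 also overlap those of other genes.

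Pgk1 had 123, 134 and 114 CPM (clones a, b, c) when untreated, 122, 198 and 163 CPM after 1 h, 135, 216 and 149 CPM after 2 h and 100, 158 and 109.5 CPM after 4 h of 4OHT. All 2 h libraries were above all untreated ones, and at 4 h clones a and c were below their untreated levels. The blocked fit called Pgk1 higher at 2 h (log2 0.39 ± 0.10, edgeR, adjusted p = 0.0123) and lower at 4 h than at 2 h (log2 -0.44 ± 0.10, edgeR, adjusted p = 0.0127). Pgam1 had 64.9, 66.8 and 61.8 CPM (clones a, b, c) when untreated, 69.9, 77.8 and 72.9 CPM after 1 h, 70.7, 75.9 and 68.3 CPM after 2 h and 59.9, 67.2 and 65.6 CPM after 4 h of 4OHT. Libraries at 1 h and 2 h were all above the untreated ones, with a call at 2 h with the block alone (log2 0.15 ± 0.05, edgeR, adjusted p = 0.0423).

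Enolase and pyruvate kinase. Eno1 encodes the enolase of most cells and Pkm the muscle-type pyruvate kinase, which makes pyruvate. Eno1 (chr4:150236721-150248879, plus strand) had 225, 303 and 274 CPM (clones a, b, c) when untreated, 329.6, 413 and 355 CPM after 1 h, 322, 436 and 355 CPM after 2 h and 325, 410.2 and 331 CPM after 4 h of 4OHT. All libraries at each treated time were above all untreated ones, and the levels at 1 h were already as high as at 4 h in each clone. Eno1 rose by 0.47 ± 0.14 at 2 h (edgeR, adjusted p = 0.0451) and 0.41 ± 0.14 at 4 h (edgeR, adjusted p = 0.0462), and by 0.46 ± 0.05 at 1 h with the block (edgeR, adjusted p = 0.00125). The call at 4 h ended without clone a or c of the untreated group or clone b or c of the 4 h group (log2 0.29 to 0.46, adjusted p 0.0711 to 0.184 by edgeR). Eno1b, a near copy that is no member, had 121, 148 and 122 CPM at 4 h in clones a, b and c, against 34.1, 67.3 and 73.7 CPM in untreated cells, and the counting could split reads between the 2. Eno2 and Eno3, the neuronal and muscle forms, made up 1.0% to 1.5% and 5.5% to 7.1% of the summed level per kilobase of Eno1, Eno2 and Eno3 at 4 h. Neither Eno2 nor Eno3 was called at any time in either fit (edgeR, adjusted p = 0.162 for Eno2 and 0.784 for Eno3 at 4 h with the block).

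Pkm (chr9:59656368-59679375, plus strand) had 2053, 2591 and 2706 CPM (clones a, b, c) when untreated, 2980.3, 3099 and 3029.5 CPM after 1 h, 2910.2, 3499 and 3536 CPM after 2 h and 3134, 3593 and 3326 CPM after 4 h of 4OHT. All libraries at each treated time were above all untreated ones. Pkm rose by 0.44 ± 0.11 at 2 h (edgeR, adjusted p = 0.0261) and 0.45 ± 0.11 at 4 h (edgeR, adjusted p = 0.00994), and the call at 4 h held without any 1 of the 6 libraries. With the block it also rose at 1 h (log2 0.32 ± 0.07, edgeR, adjusted p = 0.0273). The count table does not split the spliced forms of Pkm, and its exons overlap those of Gm49759.

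Lactate dehydrogenase. Ldha encodes the subunit that favours lactate formation and Ldhb the one that favours pyruvate formation. Ldha had 968, 1230.2 and 1076 CPM (clones a, b, c) when untreated, 1119, 1437 and 1170.1 CPM after 1 h, 1148, 1532 and 1202 CPM after 2 h and 1092, 1515 and 1201 CPM after 4 h of 4OHT. Each clone was above its own untreated level at each time, with overlap between groups. The log2 change was 0.22 ± 0.15 at 4 h without a call (edgeR, adjusted p = 0.294), and Ldha rose with the block at 2 h and 4 h (edgeR, adjusted p = 0.00397 and 0.00487).

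Ldhb, singled out after its values were seen, had 334, 229 and 243 CPM at 4 h in clones a, b and c, against 401, 325 and 350 CPM in untreated cells. Each clone was lower at 4 h, while the groups overlapped through clone a. The log2 change was -0.42 ± 0.16 without a call (edgeR, adjusted p = 0.0718), and Ldhb fell with the block (edgeR, adjusted p = 6.81e-05). Its share of the summed level per kilobase of the pair was 39.2%, 24.2% and 29.9% at 4 h in clones a, b and c, against 46.6%, 35.8% and 40.7% in untreated cells.

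Lactate export. Slc16a1 encodes MCT1 and Slc16a3 encodes MCT4, transporters that carry lactate with a proton. Slc16a1 (chr3:104638668-104658462, plus strand), whose promoter is printed beside that of Slc2a1, had 290.1, 262 and 256 CPM (clones a, b, c) when untreated, 273, 294 and 288 CPM after 1 h, 339, 409 and 354 CPM after 2 h and 336, 509.9 and 397 CPM after 4 h of 4OHT. All libraries at 2 h and 4 h were above all untreated ones, with the highest value in clone b at 4 h. Slc16a1 rose by 0.45 ± 0.13 at 2 h (edgeR, adjusted p = 0.0387) and 0.62 ± 0.13 at 4 h (edgeR, adjusted p = 0.00447), and the call at 4 h held without any 1 of the 6 libraries (log2 0.44 to 0.75).

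Slc16a3, singled out after its values were seen, had 124, 299 and 155 CPM at 4 h in clones a, b and c, against 90.5, 173 and 120 CPM in untreated cells. Clone b was the highest at every time, and each clone was above its own untreated level at every treated time. Without the block no call was made (log2 0.56 ± 0.40 after 1 h, 0.74 ± 0.40 after 2 h and 0.59 ± 0.40 after 4 h). With the block Slc16a3 rose at all 3 times (edgeR, adjusted p = 0.00548, 0.000177 and 0.000266). The share of Slc16a3 in the summed level per kilobase of the 2 transporters was 30.0%, 42.8% and 31.7% at 1 h in clones a, b and c, and 23.5%, 32.8% and 24.5% at 4 h, against 20.6%, 35.5% and 28.0% in untreated cells.

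Entry to mitochondria. Pdk1, Pdk2 and Pdk3 encode kinases that inactivate pyruvate dehydrogenase, and Pdha1 the subunit they act on. Pdk1 (chr2:71873224-71903858, plus strand) had 242, 293 and 245 CPM (clones a, b, c) when untreated, 259, 272 and 264 CPM after 1 h, 288, 263 and 272 CPM after 2 h and 359, 338 and 347 CPM after 4 h of 4OHT. Levels at 1 h and 2 h lay among the untreated ones, and all 4 h libraries were above. Pdk1 rose by 0.42 ± 0.08 at 4 h (edgeR, adjusted p = 0.00217), with the call kept without any 1 of the 6 libraries (log2 0.37 to 0.52), and the change from 2 h to 4 h was 0.34 ± 0.08 (edgeR, adjusted p = 0.0296). The change at 2 h was 0.08 ± 0.08 (edgeR, adjusted p = 0.499).

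Pdk2, singled out after its values were seen, was low, with 2.65, 1.15 and 1.54 CPM at 4 h in clones a, b and c, against 2.47, 3.42 and 3.74 CPM in untreated cells. It was lower in clones b and c and not in clone a. The log2 change was -0.85 ± 0.30 without a call (edgeR, adjusted p = 0.0503) and -0.86 ± 0.28 with the block (edgeR, adjusted p = 0.0248). Pdk3 fell with the block only (log2 -0.21 ± 0.06 at 4 h, edgeR, adjusted p = 0.0141), and Pdha1 was not called at any time in either fit (edgeR, adjusted p = 0.155 at 4 h with the block). Pdk1 made up 71.8%, 72.1% and 74.5% of the summed level per kilobase of Pdk1, Pdk2 and Pdk3 at 4 h in clones a, b and c. In untreated cells its share was 59.8%, 65.5% and 63.2%. Pdk4, a further kinase of this kind that is no member, is not in the sum. Its level was 10.2 ± 1.09 CPM at 4 h and 11.5 ± 1.49 CPM in untreated cells (SD, n = 3 each).

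The remaining 2 symbols, Pgm1 and Pgm2, name phosphoglucomutases, which link glycolysis to glycogen. Each symbol is also a synonym of the other gene in RefSeq, so which of the 2 genes a row holds is uncertain. Pgm1 was not called at any time in either fit (edgeR, adjusted p = 0.191 at 4 h with the block). Pgm2 had 44.4, 82.1 and 40.2 CPM at 4 h in clones a, b and c, against 53.8, 113 and 51.2 CPM in untreated cells, and fell with the block only (log2 -0.36 ± 0.05, edgeR, adjusted p = 0.000208).

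**Figure D3:**
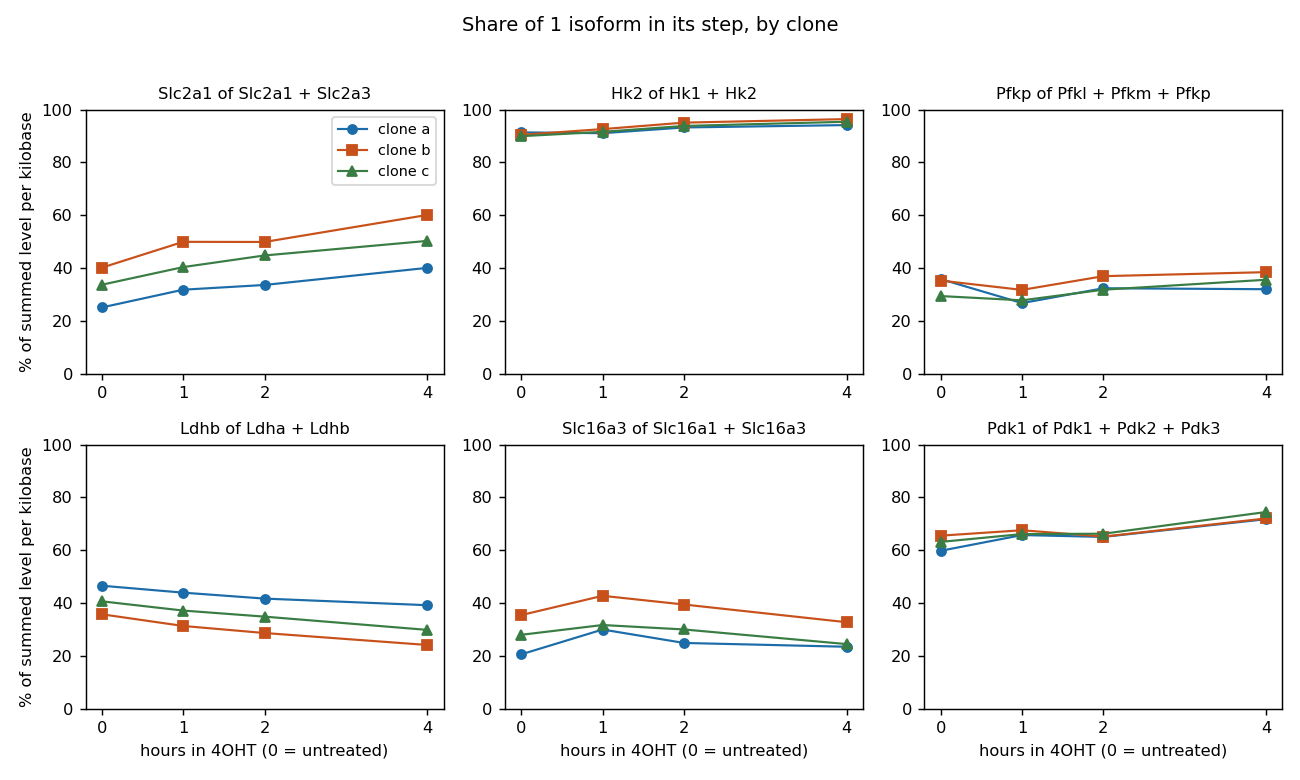
Share of 1 isoform in the summed level per kilobase of its step (percent, vertical) against hours in 4OHT (0 is untreated), with 1 line per clone, for 6 steps. In each clone the share of Slc2a1, Hk2 and Pdk1 is higher at 4 h than in untreated cells and that of Ldhb is lower, while Slc16a3 peaks at 1 h.

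Levels per length in untreated cells ran from 0.52 CPM per kilobase for Pfkfb2 to 587 for Aldoa (460.5 with both of its annotated entries). Aldoa and Pkm were highest, in an order that turns on this length (670.1 ± 46.1 CPM per kilobase for Pkm at 4 h and 489.9 ± 69.8 in untreated cells, SD, n = 3 each), and their ranges over clones overlapped in both groups with either length. Ldha followed (383 ± 66.4 at 4 h and 329.8 ± 39.8 in untreated cells). In untreated cells the next were Ldhb (228 ± 24.5 CPM per kilobase), Slc2a3 (212 ± 16.5) and Tpi1 (210.3 ± 33.8), whose ranges over clones overlapped. At 4 h Slc2a1 averaged 315 ± 197 CPM per kilobase, against 107 ± 37.3 in untreated cells, a range that overlapped those of Ldha and Slc2a3. Pfkfb2, Eno2 and Pdk2 were at or under 1.01 CPM per kilobase on average in every group.

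**Figure D4:**
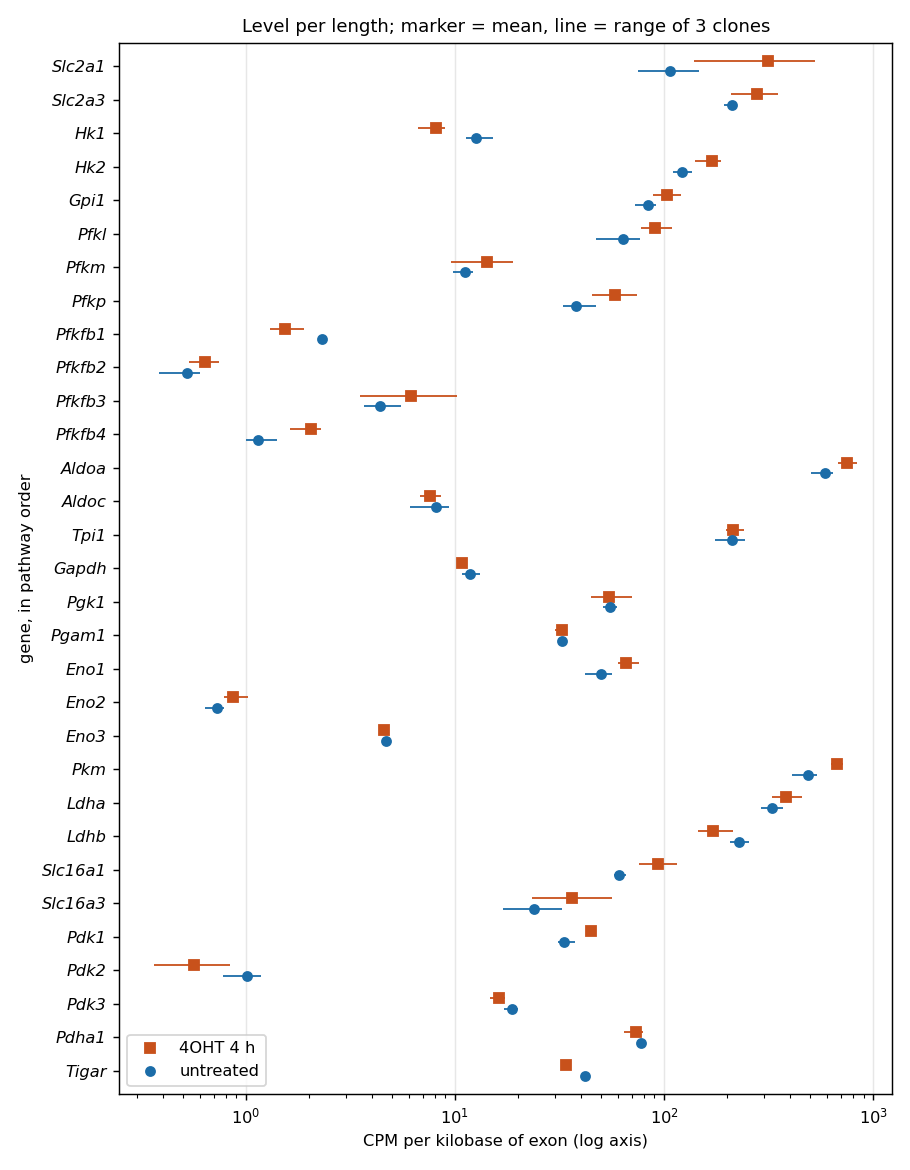
Level per kilobase of exon (CPM per kilobase, log axis) of 31 genes in pathway order at 4 h of 4OHT (squares) and in untreated cells (circles), with the mean as the marker and the range of 3 clones as the line; Pgm1 and Pgm2 are left out. Aldoa (exon length of its longer entry) and Pkm lie farthest to the right, and Slc2a1 has a wide range at 4 h.

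Steps between treated times. From 1 h to 2 h, 0 of the 33 genes passed edgeR's threshold without the block, where 0.0634% of all tested genes did; DESeq2 and limma-voom also called 0, and 3 had an unadjusted p under 0.05 in edgeR. With the block 4 passed, beside 12.6% of all tested genes. Slc2a1 (log2 0.53 ± 0.14), Pfkp (0.36 ± 0.06) and Slc16a1 (0.36 ± 0.10) were higher at 2 h and Hk1 (-0.36 ± 0.07) was lower. From 2 h to 4 h, 2 passed without the block, Pdk1 upward and Tigar downward, beside 4.68% of all tested genes. With the block 6 passed, beside 22.0%. Pdk1 was higher at 4 h, and Hk1 (log2 -0.34 ± 0.08), Pgk1, Ldhb (-0.30 ± 0.05), Tigar and Pgm2 (-0.25 ± 0.05) were lower.

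Clones. The summed level of the 33 genes was 13747, 18983 and 15662 CPM at 4 h in clones a, b and c, against 11074, 13347 and 12483 CPM in untreated cells. Clone b was the highest in both groups. The mean log2 change of 7 ERK response genes (Egr1, Fos, Dusp6, Spry4, Etv4, Spry2 and Dusp4) at 4 h was 2.27 in clone a, 3.41 in clone b and 3.0 in clone c, the same order as the within-clone changes of Slc2a1 (0.90, 1.84 and 1.5), Slc16a1 (0.21, 0.96 and 0.63), Hk2 (0.24, 0.71 and 0.46) and, downward, Hk1 (-0.36, -0.80 and -0.76). Aldoa, Eno1 and Pkm had another order, with clone a highest (0.42, 0.53 and 0.61 at 4 h) and clone c lowest (0.24, 0.27 and 0.30). The other 4 of the 11 called genes (Pfkfb1, Pfkfb4, Pdk1 and Tigar) had neither order. These orders were read off after the values were seen, and with 3 clones no relation was tested.

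Neighbouring pathways. Each count is from edgeR without the block unless the block is named, and stands beside 18.0% of all tested genes higher and 15.1% lower at 4 h, or 26.2% and 25.7% with the block. The median log2 change at 4 h over all tested genes was -0.02. Of the 9 tested genes of the pentose phosphate pathway, which makes ribose and NADPH from glucose 6-phosphate, 3 had risen at 4 h and 0 had fallen: Rpe (log2 0.55 ± 0.09), Tkt (0.43 ± 0.10) and Taldo1 (0.34 ± 0.09), all enzymes of its non-oxidative arm (list median 0.19). With the block, 3 had risen and 2 had fallen, H6pd (-0.44 ± 0.13) and Prps2 (-0.34 ± 0.08). G6pdx, the first oxidative enzyme and one that most cells use, was listed at 0 counts in all libraries, which is not read as absence. Of 10 genes of the serine and glycine branch, which leaves glycolysis at 3-phosphoglycerate, 4 had risen and 0 had fallen at 4 h: Mthfd2 (0.57 ± 0.10), Phgdh (0.51 ± 0.10), Mthfd1l (0.28 ± 0.09) and Shmt1 (0.27 ± 0.06), with a list median of 0.25. With the block 7 had risen and 0 had fallen. Phgdh, the first enzyme of serine synthesis, averaged 48.8 ± 4.70 CPM at 4 h and 34.3 ± 2.94 CPM in untreated cells (SD, n = 3 each).

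For glycogen metabolism the calls without the block were all downward. Of its 14 genes, 0 had risen and 5 had fallen at 4 h without the block (Pygb, Gys1, Phka1, Phka2 and, outside the naming rule, Ugp2), and 1 had risen and 9 had fallen with it; the list median was -0.30. Pygb, a glycogen phosphorylase, averaged 23.9 ± 4.23 CPM at 4 h and 37.7 ± 1.87 CPM in untreated cells (SD, n = 3 each; log2 -0.66 ± 0.11, edgeR, adjusted p = 0.00145). Gys1, which makes glycogen, averaged 27.7 ± 0.840 CPM at 4 h and 42.4 ± 7.56 CPM in untreated cells (log2 -0.61 ± 0.15, edgeR, adjusted p = 0.0102). The subunits Phka1 (-0.49 ± 0.13) and Phka2 (-0.41 ± 0.10) belong to phosphorylase kinase. Genes for making and for breaking down glycogen were thus both among the 5. None of the 5 tested hexosamine genes was called at 4 h by edgeR without the block, and with it 1 was, Ogt (log2 -0.16 ± 0.05).

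Of 11 tested genes for the entry of pyruvate to mitochondria and its use there, 3 had risen and 1 had fallen at 4 h. With the block these numbers were 5 and 2 (list median 0.14). Mpc1 and Mpc2, which encode the carrier for that entry, were not called at 4 h without the block (log2 0.32 ± 0.21 and -0.30 ± 0.12, edgeR, adjusted p = 0.263 and 0.0688). Pdhb, the beta subunit of pyruvate dehydrogenase, averaged 159 ± 28.7 CPM at 4 h and 97.3 ± 4.60 CPM in untreated cells (SD, n = 3 each; log2 0.71 ± 0.11, edgeR, adjusted p = 0.00106). Pdp1, the phosphatase that reverses the Pdk kinases, rose by 0.80 ± 0.20, Cs by 0.19 ± 0.07, and Pdpr, a regulatory subunit of the phosphatase, fell by 0.45 ± 0.10. Pdk1 and Pdp1, with opposite actions on pyruvate dehydrogenase, were thus both higher. Of 10 genes for glycerol phosphate and NADH shuttles, 2 had risen (Slc25a13, 0.39 ± 0.10, and Mdh2, 0.22 ± 0.07) and 2 had fallen (Slc25a11, -0.41 ± 0.10, and Gpd1l, -0.52 ± 0.18; list median 0.07). With the block 4 had risen and 3 had fallen.

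Of 18 tested genes for other isoforms of the pathway, 1 had risen and 1 had fallen at 4 h, and 3 and 1 with the block (list median -0.11). Slc2a4, which encodes GLUT4, averaged 1.62 ± 0.615 CPM at 4 h and 3.89 ± 0.730 CPM in untreated cells (SD, n = 3 each; log2 -1.27 ± 0.26, edgeR, adjusted p = 0.00454), so that this low transporter fell where Slc2a1 rose. Adpgk, an ADP-dependent glucokinase, rose by 0.37 ± 0.09.

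Regulators. Of 21 genes for regulators of glycolytic transcription, 1 had risen and 0 had fallen at 1 h, where 0.0775% of all tested genes were called. At 2 h 4 had risen and 0 had fallen, beside 9.56% and 6.64% of all tested genes, and at 4 h 5 had risen and 3 had fallen (list median 0.02). With the block the numbers risen and fallen were 3 and 0 at 1 h, 6 and 3 at 2 h, and 6 and 5 at 4 h. Myc averaged 26.4 ± 4.79 CPM before treatment, 87.9 ± 15.9 after 1 h, 130.2 ± 37.7 after 2 h and 140.3 ± 42.9 after 4 h (SD, n = 3 each). Its log2 change was 1.73 ± 0.26 at 1 h (edgeR, adjusted p = 0.0410) and 2.41 ± 0.27 at 4 h (edgeR, adjusted p = 0.000208). Mycl fell to 17.3 ± 12.2 CPM at 4 h, against 63.2 ± 19.4 CPM in untreated cells (log2 -1.87 ± 0.42, edgeR, adjusted p = 0.00675). Txnip and Arrdc4 are related arrestins that lower glucose uptake. Txnip rose by 1.04 ± 0.18 (edgeR, adjusted p = 0.00171) and Arrdc4 fell by 0.98 ± 0.26 at 4 h (edgeR, adjusted p = 0.0160).

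Hif1a, which encodes an oxygen-regulated subunit of hypoxia-inducible factor, averaged 79.5 ± 3.12 CPM at 4 h and 78.2 ± 5.17 CPM in untreated cells (SD, n = 3 each). Hif1a was not called (log2 0.03 ± 0.07, edgeR, adjusted p = 0.802). Epas1, for another such subunit, averaged 69.7 ± 9.19 CPM at 4 h and 52.4 ± 6.91 CPM in untreated cells. All its 4 h libraries were above all untreated ones, but only just: clone b had 60.42 CPM at 4 h and clone c 60.34 CPM when untreated. Vhl, of the same list, averaged 28.6 ± 4.75 CPM at 4 h and 39.3 ± 1.16 CPM in untreated cells, with all 4 h libraries below all untreated ones. Of 15 tested hypoxia-induced genes outside glycolysis, 1 had risen and 2 had fallen at 4 h, and 2 and 3 with the block (list median -0.01). Bhlhe40, a transcriptional repressor, rose by 1.30 ± 0.34, while Ddit4 fell by 0.78 ± 0.21 and P4ha2 by 0.35 ± 0.11. At 2 h, 1 gene of this list had risen and 1 had fallen (list median 0.08), beside 9.56% and 6.64% of all tested genes. With the block 4 had risen and 3 had fallen at 2 h, beside 20.6% and 20.0%. Car9, a carbonic anhydrase near the lower limit of detection, was under 1 CPM on average in every group and was lower at 2 h (log2 -1.16 ± 0.33, edgeR, adjusted p = 0.0376). Of the 7 ERK response genes, 5 had risen at 1 h (7 with the block) and 7 at 2 h and 4 h, with a list median of 2.67 at 4 h.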

How the data were processed

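RNA of 12 cultures was measured by sequencing, and the authors deposited 1 table of raw counts per gene symbol. Per the labels' protocols, total RNA was depleted of ribosomal RNA, and no enrichment of uridine-labelled RNA is described. The sample titles carry the tag mRNA_TC. The submitters' processing notes name STAR, featureCounts, DESeq and mm10. The sources used here give no versions, strand setting or rule for reads that map to several places, so overlapping genes and near copies are uncertain. Groups and clones came from the labels. Deposited counts were filtered with filterByExpr (minimum count 10, minimum total 15), scaled by TMM and fitted with edgeR 4.0.16 (quasi-likelihood, 1 term per group, all 12 libraries, R 4.3.3), 2-sided, with Benjamini-Hochberg adjustment over 14185 genes at 0.05. Log2 changes are given ± SE, which is the absolute change divided by the square root of F. Same-clone libraries deviated together in 18 of 18 pairs (r 0.184 to 0.684), so the clone letter pairs them, and the fit with clone as a block is given for the members and for the 4 h count of each list. Coordinates and exon lengths are from GENCODE M21 (GRCm38), promoters from RefSeq (GRCm38.p6), and near copies were searched with blastn 2.17.0. The fit without the block was tested on counts simulated with no difference between clones, so that test does not cover the pairing of clones seen here. DESeq2 1.42.0, limma-voom (limma 3.58.1), other filters and scaling, and leaving out libraries were tried as alternatives. The members and gene lists were chosen with earlier results of these data known. Library values are given for members called without the block at any time and for the member with the highest level per kilobase at each step. Up to 4 genes a list were named by the size of the change among those called. Ugp2, Hif1a, Epas1, Vhl, Mpc1, Mpc2, Pdk4, G6pdx, H6pd and Prps2 fall outside this rule and were named after their values were seen.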

Additional observations from a re-analysis of the deposited data

How the results depend on the processing

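With the clone as a block, the number of the 33 genes called by edgeR was 8 at 1 h, 18 at 2 h, 23 at 4 h, 4 from 1 h to 2 h and 6 from 2 h to 4 h, against 0, 6, 11, 0 and 2 without it. No call made without the block was lost with it. RLE scaling, no filter on low counts and limma-voom gave the same counts as the fit without the block, and DESeq2 gave 8 at 2 h and 13 at 4 h. Fitting the 2 groups alone gave 2 at 2 h, 8 at 4 h and 0 from 2 h to 4 h. Leaving out 1 library without the block, or 1 clone with or without it, gave 0 to 11 genes at 1 h, 0 to 20 at 2 h, 0 to 25 at 4 h, 0 to 12 from 1 h to 2 h and 0 to 12 from 2 h to 4 h. Without clone c at all times, 0 genes were called at 4 h without the block. All 6 calls at 2 h ended without clone a or b of the untreated group or clone b or c of the 2 h group. Changes near 0 and not called turned sign. Pgam1 at 4 h was 0.0032 with RLE scaling, 0.0063 with no filter and 0.0057 with DESeq2, and Tigar at 2 h was 0.0024 with no filter and 0.0021 with DESeq2. With 1 library or clone left out, the log2 change ran from -0.0526 to 0.0447 for Pgam1, -0.0944 to 0.1383 for Tpi1 and -0.2455 to 0.1116 for Pgk1 at 4 h. It ran from -0.0435 to 0.012 for Tigar and -0.0094 to 0.2025 for Pdk1 at 2 h, and from -0.0199 to 0.2136 for Hk1, -0.0212 to 0.1245 for Pdk1 and -0.1425 to 0.0051 for Pfkfb1 at 1 h. The cause of these shifts was not tested. The depth of 24213641 counts or more per library limits the low genes most, such as Pfkfb2 and Pdk2. The level per kilobase of Aldoa in untreated cells was 460.5 with the exon length of both of its annotated entries, against 587 with the longer one, an alternative added after seeing the data.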
